A study of Mus musculus with 36 samples.

Results

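The ileal mucosa of mice colonised by E. coli Nissle was compared with that of mice colonised by E. coli CEC, using 18 of the 36 samples of a real-time PCR study. The 9 Nissle and 9 CEC samples were taken by the colonisation label, and both groups were mono-associated, meaning that a germfree mouse received a single bacterial strain. The labels give the number 21 for colonisation in both groups, without a unit, and give no mouse strain, sex or age. The remaining 18 samples came from germfree and from conventional mice and were used here only for reference levels. The series' design text speaks of RNA being pooled across mice while each title has its own number, which does not settle if 1 mouse or a pool stands behind a sample. The p-values therefore measure the sample-to-sample spread only, and this may be technical.

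E. coli Nissle is a human isolate used as a probiotic. The labels do not expand CEC. The ileal mucosa carries absorptive, goblet, Paneth and enteroendocrine cells above a layer of immune cells, and in germfree mice its transcription responds to the arrival of bacteria. Placing 1 strain at a time in a germfree host is the usual way to ask whether strains of a species act differently on that lining. The comparison of the strains here asks that question.

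The panel held 224 TaqMan assays, 217 of which entered the test of level. The deposited table names them by catalogue ID, and 0 of these IDs were found in the gene table at hand, so assays are given by ID and no gene is named. The markers of ileal cell types could not be checked for the same reason, and no promoter or transcript sequence could be matched. In mucosal RNA, fewer cells of a type and less RNA per cell cannot be told apart. The Ct is the PCR cycle at which an assay's signal crosses the threshold, so a high Ct means little transcript. Levels are log2 relative levels: a sample's mean Ct over the 148 assays that gave a signal in all 18 samples, minus the Ct of the assay. They rise with transcript abundance, and 1 log2 unit is a 2-fold change if amplification is complete.

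Overall signal was close in the groups. Over the 148 assays, Ct averaged 21.3 ± 0.245 (SD, n = 9) in the CEC samples and 21.3 ± 0.165 (SD, n = 9) in the Nissle samples. The number of assays measured in a sample stands in for depth, which Ct data do not give. It had a median of 216 with CEC and 218 with Nissle. CEC replicate 6 had 198 and Nissle replicate 6 had 175, both below the range of 215 to 221 of the other samples. The 49 wells without signal in Nissle replicate 6 lay almost all among the first 112 assays of the table, which held 47 of them. The 26 wells without signal in CEC replicate 6 were placed alike, with 25 among those assays. CEC replicate 7 was measured for 217 assays but stood apart in level. Its median absolute deviation from the other samples of its group was 1.13 log2 units, against 0.208 to 0.460 in the 16 samples other than it and Nissle replicate 6. In 34 assays it lay more than 3 log2 units from the median of the other CEC samples, 11 of them above and 23 below. Whether wells or the identity of this sample were mixed up was not tested, and every value from all 18 samples includes it. The results are therefore given with and without CEC replicate 7 and Nissle replicate 6. CEC replicate 6 was kept in both.

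**Figure D1:**
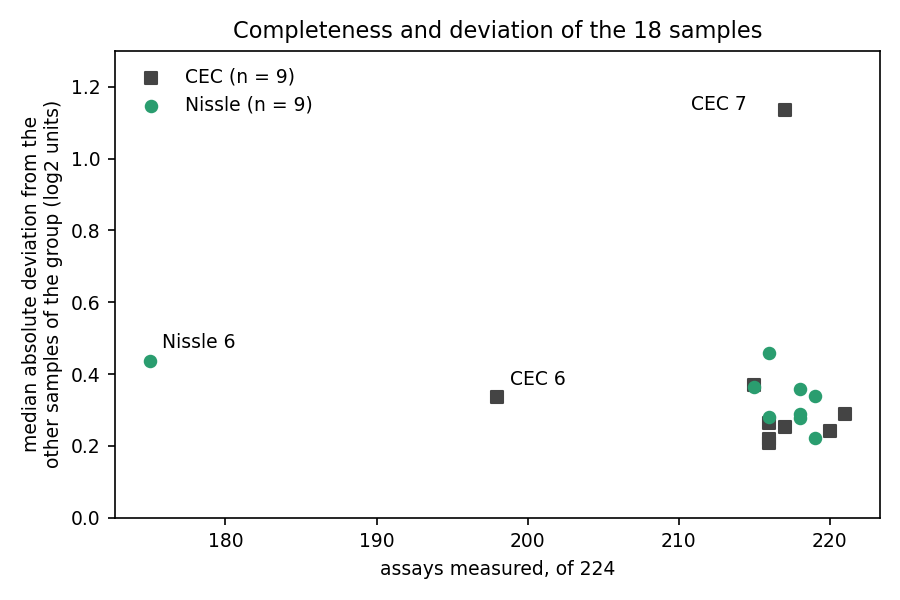
Each point is 1 sample of the strain comparison, placed by the number of assays measured and by its median absolute deviation from the other samples of its group in log2 units. CEC replicate 7 lies at 1.13 log2 units, and Nissle replicate 6 and CEC replicate 6 lie to the left at 175 and 198 assays.

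An assay was tested if it was measured in at least 5 of 9 samples of each group, which left 217. Each was then placed in 1 of 3 classes. It differed if the adjusted p of the strain difference was under 0.05 (limma, Benjamini-Hochberg). It was shown equal within 1 log2 unit if the 95% confidence interval of the difference lay wholly between -1 and 1. Otherwise it stayed undecided, because the interval still held a difference of 1 log2 unit or more.

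Most of the panel was shown equal between the strains. With all 18 samples, 137 of 217 assays, or 63.1%, were equal within 1 log2 unit, 79 (36.4%) stayed undecided and 1 (0.461%) differed. An unadjusted p under 0.05 was reached by 7 assays (3.23%), against 10.85 expected by chance. Without CEC replicate 7 and Nissle replicate 6, 178 of 216 assays (82.4%) were equal, 38 (17.6%) were undecided and limma called 0, with 13 (6.02%) at an unadjusted p under 0.05. The assay that differed was not among those 216, since only 4 CEC values remained. With a filter of 3 samples per group in place of 5, it was tested without the 2 samples and was still called (limma, adjusted p = 0.0480). The exact permutation test per assay on all 18 samples called 0, with 8 at an unadjusted p under 0.05; for an assay with 5 values against 5 its p cannot go below 0.00794, so that it could hardly pass the adjustment.

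The strain differences themselves were small. Their median size, regardless of sign, was 0.202 log2 units with all samples and 0.155 without those 2 samples. The difference was under 0.25 log2 units in 128 of 217 assays, and under 0.5 in 179. It was above 0, meaning higher with Nissle, in 98 assays (45.2%) and below 0 in 119. Without the 2 samples, 97 of 216 (44.9%) were above 0 on the scaling to the same 148 assays, and 115 (53.2%) when rescaled to the 183 assays measured in the remaining 16 samples. With all samples scaled to their median Ct, 78 of 217 were above 0. The median difference over all assays was -0.04 with all samples, and without the 2 it was -0.02 on the scaling to the same assays and 0.01 after rescaling. Scaling to the mean Ct holds the mean difference over the assays used for it at 0. A median near 0 and a near-even split of signs are thus partly built into the scaled levels. On raw Ct, with no scaling, the median difference was -0.06, and 92 of 217 assays (42.4%) were above 0. Values given below without the 2 samples are the rescaled ones.

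**Figure D2:**
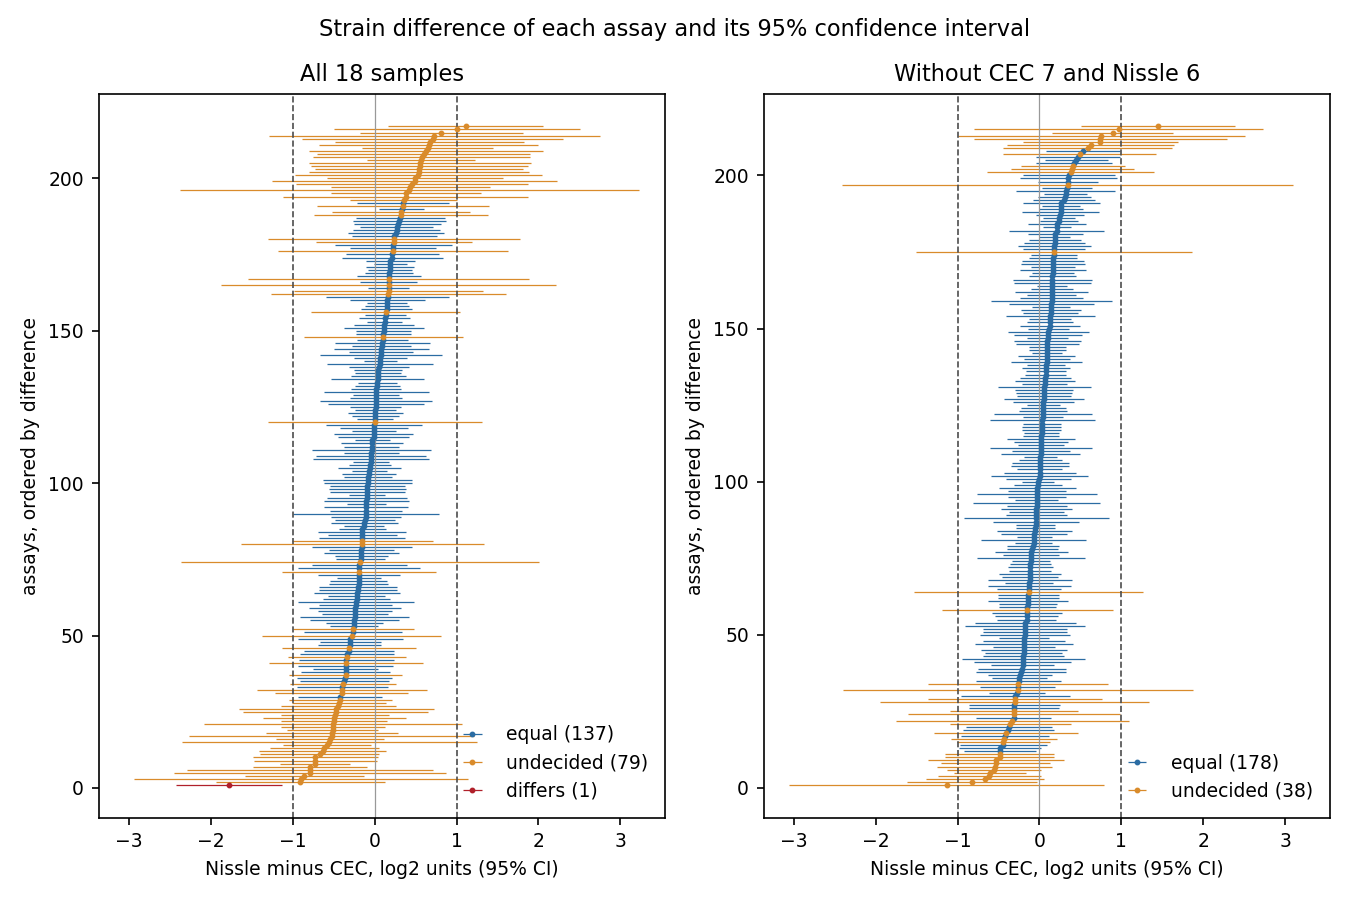
Each line is 1 assay: the point is the log2 difference Nissle minus CEC and the bar its 95% confidence interval, with dashed lines at the margin of 1 log2 unit. With all 18 samples 137 assays lie inside the margin, 79 reach beyond it undecided and 1 differs; without CEC replicate 7 and Nissle replicate 6 the numbers are 178, 38 and 0.

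The equal assays were bounded well inside the margin in most cases. Among the 137, the differences ran from -0.42 to 0.35 log2 units, 60 above 0 and 77 below, and the interval typically reached 0.411 either side of the estimate (median). With a margin of 0.5 log2 units, 56 assays were still shown equal, and with margins of 1.5 and 2 the counts were 179 and 200. The widest claim that would cover every tested assay is a bound of 3.23 log2 units, a 9.37-fold difference.

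The 4 assays with the tightest bounds, 2 on either side of 0, show what equality looks like in single samples. Mm01332867_m1 had log2 relative levels from 0.24 to 0.69 with CEC (median 0.54) and from 0.24 to 0.92 with Nissle (median 0.54). The ranges overlapped, with 2 Nissle samples above every CEC sample, and the difference was 0.01 ± 0.10 (SE), with a 95% confidence interval of -0.21 to 0.23. Mm00495620_m1 lay between 0.11 and 0.997 with CEC (median 0.64) and between 0.29 and 0.88 with Nissle (median 0.59). Its difference was 0.01 ± 0.12 (SE), with an interval of -0.24 to 0.26, and every Nissle sample lay within the CEC range. The top of that range was CEC replicate 7. Without CEC replicate 7 and Nissle replicate 6, 2 Nissle samples lay above every CEC sample.

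Mm00452509_m1 ran from 1.65 to 2.26 with CEC (median 1.76) and from 1.56 to 1.93 with Nissle (median 1.82). The highest CEC value was that of replicate 7, and 2 Nissle samples lay below every CEC sample. Its difference was -0.03 ± 0.10 (SE), with an interval of -0.24 to 0.19. Mm04213618_gH had levels of 3.39 to 3.91 with CEC (median 3.67) and 3.44 to 3.88 in the 8 Nissle samples with a value (median 3.64). The Nissle range lay inside the CEC range, whose top was again CEC replicate 7. Without CEC replicate 7 and Nissle replicate 6, 2 Nissle samples lay above every CEC sample. The difference of Mm04213618_gH was -0.05 ± 0.10 (SE), with an interval of -0.27 to 0.17. All 4 were also shown equal without the 2 samples, the farthest bound among them then being 0.37 log2 units, for Mm00495620_m1.

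The assays nearest to the margin were chosen after their values were seen. The equal assay nearest to it was Mm01313472_m1, with an interval of -0.999 to 0.786, and the undecided assay nearest to it was Mm00725711_s1, with one of -1.001 to 0.476. CEC replicate 7 was the highest CEC sample in both, at -1.96 and 2.94. Without CEC replicate 7 and Nissle replicate 6 both were equal, with intervals of -0.28 to 0.92 and -0.29 to 0.41, and both estimates turned from below 0 (-0.11 and -0.26) to above it (0.32 and 0.06).

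The undecided assays lay in both directions. Of the 79, 38 had an estimate above 0 and 41 below. The interval reached past 1 only on the side of higher levels with Nissle in 28, only on the side of higher levels with CEC in 35, and on both sides in 16. In 40 of them the interval reached more than 1 log2 unit either side of the estimate, so that no estimate could have placed them inside the margin. The other 39 had narrower intervals around an estimate away from 0. The differences still allowed were mostly moderate: the farther bound was under 1.5 log2 units in 42 and over 2 in 16. Without CEC replicate 7 and Nissle replicate 6, 14 undecided assays had an estimate above 0 and 24 below. The interval then reached past 1 only on the side of higher levels with Nissle in 12, with CEC in 20, and on both sides in 6.

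Undecided assays were set apart by their spread within a strain. The median SD among them was 1.21 log2 units with CEC and 0.673 with Nissle, against 0.421 and 0.349 among the equal assays, which the interval width itself reflects. CEC replicate 7 was the sample farthest from its group's median in 47 of the 79, and Nissle replicate 6 in 7. Among the 137 equal assays CEC replicate 7 was farthest in 67, so it was often the outermost sample there as well, but by less. Of the 34 assays in which it lay more than 3 log2 units out, 33 were undecided with all samples, and 22 of these were equal without the 2 samples.

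A single sample, CEC replicate 7, moved the count most. Leaving out CEC replicate 7 alone gave 175 equal and 41 undecided assays. Leaving out Nissle replicate 6 alone gave 137 and 79, the same counts as with all samples, and 131 of the equal assays were the same ones. Over the 18 fits that each left out 1 sample, the equal count ran from 128 (without Nissle replicate 2) to 175, and 122 assays were equal in all 18 fits and in the full one. With CEC replicate 7 in the data, more assays varied with CEC than with Nissle: the SD was larger with CEC in 148 of 217 assays and over 1 log2 unit in 48 with CEC and in 18 with Nissle. Without the 2 samples the order turned, with the larger SD on the CEC side in 77 of 216 assays, and 15 assays over 1 log2 unit in each strain.

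**Figure D3:**
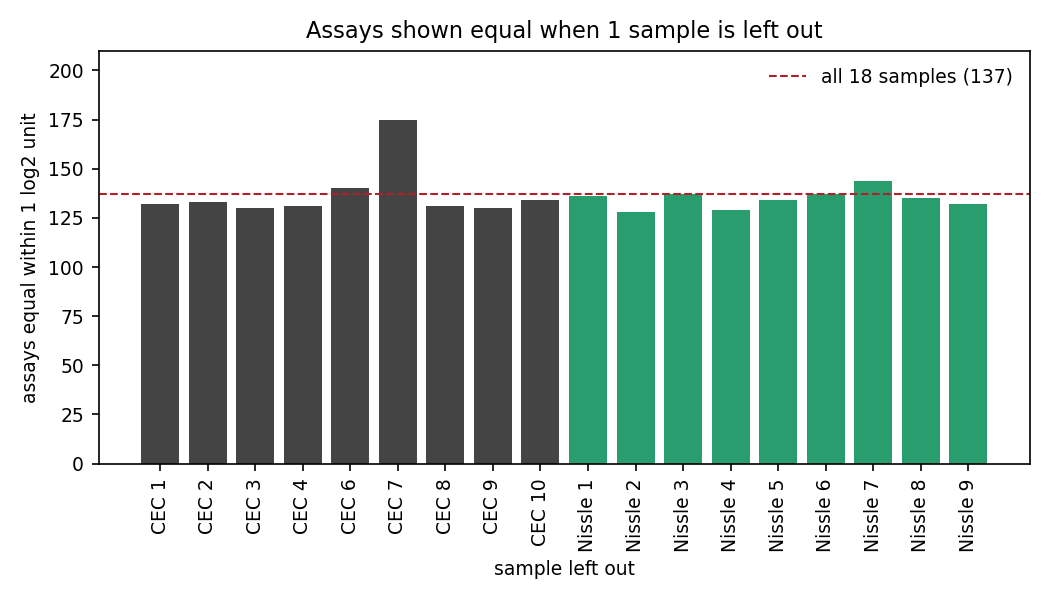
Each bar is the number of assays shown equal within 1 log2 unit when the sample named below it is left out, and the dashed line is the count with all 18 samples, 137. The bar without CEC replicate 7 reaches 175, and the other 17 lie between 128 and 144.

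Between the analyses with and without the 2 samples, 135 assays were equal in both and 36 undecided in both. A further 43 went from undecided to equal and 2 from equal to undecided. The interval was narrower without the 2 samples in 164 of the 216 assays tested in both and wider in 52. The estimates moved by a median of 0.142 log2 units and by at most 0.927.

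Scarce transcripts stayed undecided with or without those samples. At a mean Ct of 26 or more, 2 of 18 assays were equal and 15 undecided with all samples, and 3 of 18 equal and 15 undecided without the 2. Below that Ct, 135 of 199 (67.8%) were equal with all samples and 175 of 198 (88.4%) without the 2. The interval typically reached 0.996 log2 units either side at a mean Ct of 26 or more and 0.540 below it. In most assays of this level the spread did not allow a difference of 1 log2 unit to be shown or to be bounded. Of the 36 assays undecided in both analyses, whose mean Ct had a median of 25.5, 17 had an interval reaching more than 1 log2 unit either side without the 2 samples, and 20 had an SD over 1 log2 unit in at least 1 strain.

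The suffix of a catalogue ID tells where the assay sits: with m the probe spans an exon junction, with s the assay lies within a single exon, and with g it may also detect genomic DNA. Of the 172 assays with m, 114 (66.3%) were equal, against 11 of 22 with g and 12 of 23 with s. Without the 2 samples the counts were 145 of 171, 16 of 22 and 17 of 23. In the table's order, 63 of the 107 tested among the first 112 assays were equal and 74 of the 110 after them. The median difference was -0.15 in the first set and 0.04 in the second with all samples, and -0.07 and 0.08 without the 2. Whether the position on the card adds to any strain difference was not tested.

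**Figure D4:**
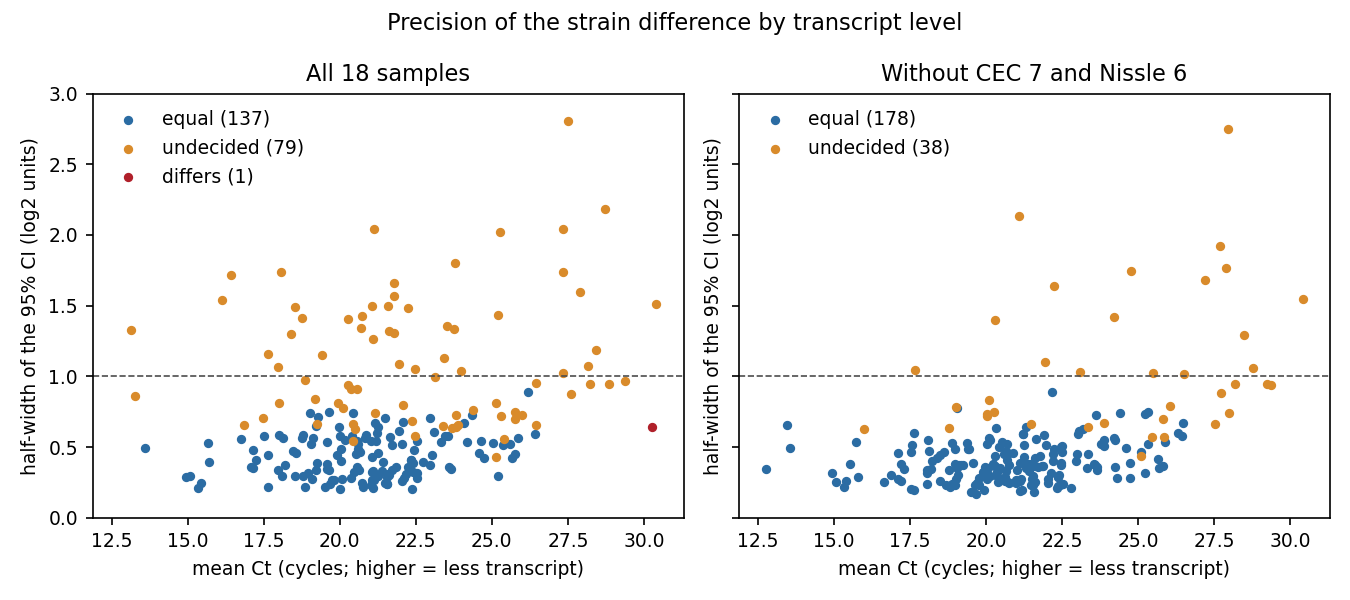
Each point is 1 assay, placed by its mean Ct over the samples used and by how far the 95% confidence interval of the strain difference reaches either side of the estimate, in log2 units. At a mean Ct of 26 or more nearly all points are undecided (15 of 18 in both panels), while below it most are equal (135 of 199 and 175 of 198).

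The 1 assay that differed was Mm01288989_m1, lower with Nissle. Only 5 wells per strain gave a signal, and their Ct averaged 29.4 (CEC) and 31.1 (Nissle), close to the highest Ct measured, 32.4. With CEC the levels were -8.85, -8.31, -7.36, -7.90 and -7.87 in replicates 1, 3, 4, 7 and 9. With Nissle they were -9.33, -9.70, -9.87, -10.17 and -10.10 in replicates 1, 2, 7, 8 and 9. Every measured Nissle value lay below every measured CEC value, which held for no other assay of the 217 (0.461%). Ranges of 5 values against 5 separate more easily than the 9 against 9 of 148 assays, so this is not a like comparison. The strain difference of Mm01288989_m1 was -1.78 ± 0.29 log2 units (SE; limma, adjusted p = 0.0228), with an interval of -2.42 to -1.13.

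That call rests on few wells. The exact permutation test gave it an unadjusted p of 0.00794, the smallest that 5 samples against 5 allow, and an adjusted p of 0.610. With undetermined wells filled in at 1 cycle above the assay's own highest Ct (31.4), the difference was -0.95 (limma, adjusted p = 0.859). Under quantile normalization it was -1.20 (limma, adjusted p = 0.863). It could not be tested at the same filter without any 1 of its 10 samples, CEC replicate 7 among them, since 4 values then remained on that side. With a filter of 3 per group and CEC replicate 7 and Nissle replicate 6 left out, the difference was -1.72 (limma, adjusted p = 0.0480). In a fit over all 36 samples the germfree mean of Mm01288989_m1, -8.75 ± 0.50 (SD), lay between those of the strains, -8.07 with CEC and -9.86 with Nissle. On that fit CEC was 0.68 above germfree (limma, adjusted p = 0.14) and Nissle 1.10 below (-1.10, adjusted p = 0.03); both use the same germfree samples.

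Among the undecided assays the largest estimate above 0 was that of Mm01220132_g1. Its levels ran from -10.40 to -6.11 with CEC (median -7.20) and from -7.66 to -5.39 with Nissle (median -6.31). The groups overlapped, but 8 of 9 Nissle samples lay above the CEC median, and CEC replicate 6 was far below all others. The difference was 1.11 ± 0.45 log2 units (SE; limma, adjusted p = 0.825), with an interval of 0.17 to 2.06. Without CEC replicate 7 and Nissle replicate 6 it was 1.45 ± 0.45 (SE; limma, adjusted p = 0.631), with an interval of 0.50 to 2.39, so that a 2-fold or larger difference stayed possible and was not shown. The 2 samples left out were a high CEC sample (-6.36) and the lowest Nissle sample (-7.66), which widens the difference. The far CEC replicate 6, at -10.40, stayed in both estimates and lowers the CEC mean. The assay's Ct averaged 28.8 (CEC) and 27.7 (Nissle), among the scarce transcripts.

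Mm00489956_g1 had a far lower value in CEC replicate 7. Its levels ran from -5.90 to 0.90 with CEC (median 0.42) and from -0.86 to 1.89 with Nissle (median 0.69). CEC replicate 7 held the lowest value, and the next CEC sample stood at 0.14. With all samples the difference was 1.005 ± 0.71 (SE; limma, adjusted p = 0.825), with an interval of -0.49 to 2.50. Without the 2 samples it was 0.53 ± 0.21 (SE; adjusted p = 0.631), its interval of 0.08 to 0.98 lay inside the margin, and the assay counted as equal.

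Among the undecided assays, the largest estimates below 0 belonged to Mm00469375_m1 and Mm00839967_g1. Mm00469375_m1 ran from -6.82 to -2.51 with CEC (median -5.90) and from -7.49 to -5.36 in 8 Nissle samples (median -6.39). The highest CEC value was again replicate 7, and 3 Nissle samples lay below every CEC sample. Its difference went from -0.90 ± 0.49 (SE; limma, adjusted p = 0.825) with all samples to -0.49 ± 0.31 (SE; adjusted p = 0.853) without the 2, where the interval of -1.15 to 0.18 left it undecided.

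Mm00839967_g1 varied widely among the samples of each strain. With CEC, 5 samples lay between -4.40 and -2.96 and the other 4 between -9.09 and -7.01. With Nissle, 3 lay between -5.45 and -2.47 and the other 6 between -9.52 and -6.79. The cut of -5.5 between these sets was not planned beforehand. The Nissle values did not fall into clear sets: -6.79 and -5.45 lay either side of the cut, and -4.27 and -2.47 lay above it. The SD was 2.24 (CEC, n = 9) and 2.14 (Nissle, n = 9). The difference was -0.90 ± 0.97 (SE; limma, adjusted p = 0.825), with an interval of -2.94 to 1.14, and without the 2 samples it was -1.13 with an interval of -3.05 to 0.79.

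The widest interval of the panel was that of Mm00445845_m1, an assay chosen after its values were seen. With CEC, replicates 1, 2, 3 and 4 lay between -9.90 and -8.17, and the other 5 samples between -5.60 and -2.94. The 8 Nissle samples with a value ran from -9.76 to -2.19, with a median of -6.78. The SD was 2.94 with CEC and 2.90 with Nissle, against 1.29 in germfree and 1.24 in conventional samples on the 36-sample scale. The difference of 0.42 ± 1.33 (SE; limma, adjusted p = 0.919) had an interval of -2.38 to 3.23, and its sign changed with single samples.

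**Figure D5:**
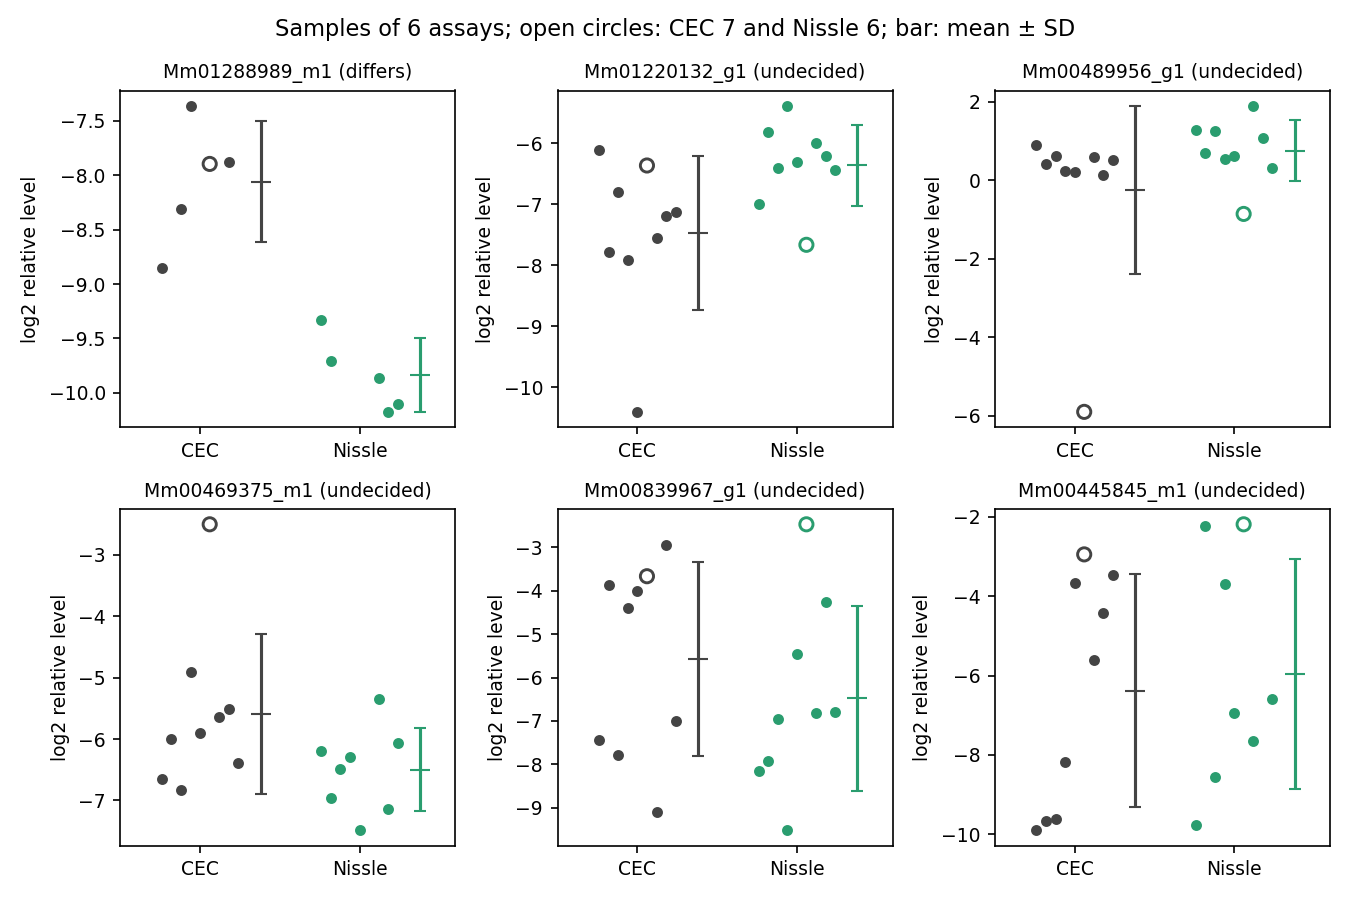
Points are the log2 relative levels of single samples with CEC (grey) and Nissle (green) for 6 assays, with the mean and SD beside them; open circles are CEC replicate 7 and Nissle replicate 6. Mm01288989_m1 has 5 values in each group that do not overlap, CEC replicate 7 lies apart at -5.90 in Mm00489956_g1 and at -2.51 in Mm00469375_m1, and Mm00839967_g1 and Mm00445845_m1 have SDs above 2 log2 units in both strains.

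Wide spread in both strains at once was seen in few assays of the panel. Without the 2 samples, an SD over 1 log2 unit was found in 15 of 216 assays with CEC and in 15 with Nissle. In 9 assays it was found with both strains, and all 9 were undecided. Their intervals reached at least 1.06 log2 units either side, so the spread by which they were picked already kept them from being shown equal. Their differences had sizes of 0.131 to 1.13 log2 units, and their mean Ct ran from 20.3 to 30.4, so not all were scarce. Of the 8 that were also measured well enough in the other groups, 4 had an SD over 1 in germfree samples too. Among all 216 assays tested in the 4 groups, 10 had such an SD in germfree samples. Over 216 assays the median SD without the 2 samples was 0.339 with CEC, 0.416 with Nissle, 0.422 in germfree and 0.342 in conventional samples.

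Assays that differed from germfree fell into each of the 3 classes of the strain comparison. In the fit over 36 samples, CEC differed from germfree in 11 of 216 assays (5.09%) and Nissle in 16 (7.41%), 22 assays in all with at least 1 strain (limma, adjusted p under 0.05). Of these 22, 12 were shown equal between the strains, 9 were undecided and 1, Mm01288989_m1, differed. Without CEC replicate 7 and Nissle replicate 6 in the strain comparison, 14 of the 21 that could be tested were equal and 7 undecided. Equality of the strains was thus shown for 54.5% of them with all samples and 66.7% without the 2, against 63.1% and 82.4% over all assays tested; the difference between these shares was not tested. The comparisons with germfree share their control samples and the strain samples, so these shares are a description.

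No difference in detection between the strains was shown. Undetermined wells made up 80 of 2016 with CEC (3.97%) and 102 with Nissle (5.06%), 49 of the latter in Nissle replicate 6. Of the 76 assays with an undetermined well, 0 differed in detection (Fisher's exact test, two-sided, smallest unadjusted p = 0.335). Many of them lacked only 1 well, where this test cannot reach a small p, so the count does not show equal detection. Among the 7 assays too rarely measured to be tested for level, 2 gave no signal in any of the 18 samples.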

How the data were processed

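The deposited table holds raw Ct values with no normalization by the authors, per the file headers, which call it a truncated example. RNA came from a mirVana extraction and cDNA was measured on custom TaqMan OpenArray cards, per the labels' protocols. The sources used here do not state the threshold or the amplification efficiency. Columns were matched to samples by title. A Ct of 40 was treated as missing (182 of 4032 wells). Each sample was scaled to its mean Ct over the assays measured in all samples used (148 for 18 samples, 183 for 16). limma 3.58.1 in R 4.3.3 (lmFit, eBayes, default settings, 1 term per group) was fitted to the 18 samples, two-sided, with Benjamini-Hochberg adjustment over all assays tested. Confidence intervals are limma's moderated 95% intervals. The step was tested on simulated data. No 2 samples of a group shared an identical Ct (72 pairs), and log2 differences within a pair had an SD of at least 0.523.

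The members and lists were chosen with earlier results of these data known. The written rule, for assays without gene names, was at most 2 IDs higher and 2 lower per class: those with the smallest farther bound among equal assays and the largest difference among undecided ones were taken. The order within a class, the assays just inside and outside the margin and the widest interval were chosen after seeing the data. The 12 planned gene lists could not be counted. Replicate numbers 1 to 4 and 6 to 9 occur in both groups, but same-numbered samples did not deviate together (3 of 8 correlations over 0.1), so they were not taken as pairs. Alternatives covered scaling, missing wells, filters, samples, variance, intervals and margins.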

Additional observations from a re-analysis of the deposited data

Results flagged for a closer look

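In 30 sample groups checked for a value far from the others by Dixon's ratio, 10 stood out. Chance gives about 1 in 20 in independent groups, but that rate does not apply here. Most groups belonged to assays picked from these data by their differences or intervals, and the same samples recur in them. CEC replicate 7 had a median absolute deviation of 1.13 log2 units, the next CEC sample 0.370. It was also the far sample in Mm00489956_g1 (a log2 relative level of -5.90), Mm00469375_m1 (-2.51), Mm01313472_m1 (-1.96), Mm00725711_s1 (2.94) and Mm00452509_m1 (2.26). The number of assays measured was far from the others in Nissle replicate 6 (175) and CEC replicate 6 (198), where the next sample of each group had 215. CEC replicate 6 was also far below its group in Mm01220132_g1 (-10.40), and CEC replicate 9 in Mm01332867_m1 (0.24), which stayed among the tightest equal assays.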

How the results depend on the processing

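The equal count of 137 stayed within 1.5 times under every alternative to the fit (104 to 182, the 104 among only 148 assays tested). It was 56 with a margin of 0.5 log2 units. Under all 4 scalings 125 assays were equal and 64 undecided. The undecided count of 79 became 38 when both CEC replicate 7 and Nissle replicate 6 were dropped. It was 40 when the remaining samples were scaled to the assays of the 18-sample fit. With the 2 dropped and a filter of 3 per group (added after seeing the data) it was 42. Sample quality weights gave 35, and margins of 0.5, 1.5 and 2 gave 160, 37 and 16. Of the 148 assays measured in all 18 samples, 44 were undecided when only these were fitted, against 45 in the main fit. Leaving out each replicate in turn gave 128 to 175 equal, 41 to 88 undecided and 0 to 1 that differed. The count of 1 that differed was 0 under quantile normalization, with undetermined wells filled in, with trend and robust settings and with quality weights. It was also 0 with Ct above 28 missing, among assays measured in all samples and with the 2 samples left out under either scaling, but there the assay was not tested, as in each fit that left out 1 of its 10 samples; at a filter of 3 per group it was still called without the 2. The permutation test gave 0, where 5 values against 5 could hardly pass.

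With the replicate number as a block over 8 shared numbers, 0 assays differed, 124 were equal and 93 undecided, against 1, 131 and 85 without the block on the same samples; same-numbered samples correlated at -0.47 to 0.37, and 0 of 8 CEC samples correlated best with their own number. For Mm00725711_s1 the uncalled difference of -0.26 turned to 0.060 with the 2 samples left out (with either filter), 0.028 with the scaling of 18 samples and 0.041 with quality weights; leaving out single samples gave -0.34 (without CEC replicate 8) to 0.069 (without CEC replicate 7). For Mm00445845_m1 it turned to -0.12 with wells filled in, and leaving out single samples gave -0.11 (without Nissle replicate 2) to 0.97 (without Nissle replicate 1), also below 0 without CEC replicate 1 (-0.016) and Nissle replicate 6 (-0.094). The cause was not tested. Scaling to reference genes was not run, since no assay could be named. Fisher's test of detection called 0 with and without the 2 samples, but it cannot reach a small p in an assay that lacks only 1 well. Of the 79 undecided assays, 15 had a mean Ct of 26 or more and 64 a lower one.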
